A study of Mus musculus with 899 samples.

Results

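Plasma of C57Bl/6 mice sampled 5 months after a single dose of whole-thorax irradiation was compared with plasma of sham-irradiated C57Bl/6 mice of the same time point. The samples were chosen by their labels alone (strain C57Bl/6, time point M5, irradiated TRUE or FALSE) and number 37 of the 497 plasma samples of this strain, or 4.12% of the samples of the series. They consist of 21 irradiated mice (9 females and 12 males) and 16 sham mice (8 females and 8 males), each sampled once at this time. No genetic change, drug or other treatment is given for either group, and the sham mice went through the same bleeding schedule. Mice with the title letter A had been bled at day 2 and those with the letter B at day 5, and the month 5 samples hold 12 irradiated and 8 sham mice of schedule A and 9 irradiated and 8 sham mice of schedule B. The irradiated mice at this time are those still sampled: 36 irradiated mice of the same title code have a sample at month 1, 21 of them have one at month 5, and 8 have one at month 6. All 16 sham mice were sampled at month 5 and at month 6. Among the 21 irradiated mice, 3 have no sample before irradiation (1097, 1098 and 1099).

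MicroRNA (miRNA) are short RNA that a cell loads into a protein complex to repress messenger RNA with matching sites, mostly through bases 2 to 8 of the miRNA, its seed. Plasma holds miRNA from blood cells and from solid organs, in vesicles, in protein complexes and in lipoproteins. Several miRNA are made mainly in 1 organ, such as miR-122 in hepatocytes and miR-216a in the exocrine pancreas, and their level in plasma is widely used as a sign of cell damage in that organ. A plasma level does not tell apart more cells releasing a miRNA from more miRNA released per cell, nor either of these from slower clearance.

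Total reads ranged from 914022 to 2825231 in irradiated mice (median 1348347) and from 994453 to 2483706 in sham mice (median 1578228), and the mean difference of -50335 reads was within the spread of mice (two-sided permutation test, p = 0.765). The plasma pattern was that of a blood sample in all 37 libraries, with miR-16-5p, abundant in red blood cells, as the most abundant miRNA, at 28.5 to 64.6% of reads in irradiated mice and 30.3 to 57.8% in sham mice. Each month 5 library came from another mouse. The edgeR p-values below use a spread estimated over all samples of the series, where mice recur over time and count as independent. They are not a measure of the spread between the month 5 mice alone. A fit of the month 5 samples alone kept 11 of the 17 miRNA called below and lost 6. A few libraries stood apart over several of the miRNA described here: the irradiated female 1098 held the highest level of the irradiated mice for 7 of the 17 miRNA that differed, and the sham females 1025 and 1027 and the irradiated male 1007 held single values that decided results. The results that these mice moved most are given with and without them.

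At month 5, 17 of 483 tested miRNA (3.52%) differed between irradiated and sham plasma (edgeR's quasi-likelihood test, Benjamini-Hochberg adjusted p under 0.05). Of these, 12 (2.48%) were higher in irradiated mice and 5 (1.04%) were lower, a split that was 9 to 1 with quantile-normalized log2 RPM and 13 to 10 with DESeq2. The higher ones were led by miR-122-5p, 9.38-fold up, and held 5 miRNA of a list of liver and intestinal epithelium, 2 of the exocrine pancreas and 2 of the miR-34 family, which the p53 protein induces. The lower ones were miR-99a-5p, miR-99b-5p, the pair miR-199a-3p and miR-199b-3p, and miR-202-5p, a miRNA of the gonads. An unadjusted p under 0.05 was found for 74 miRNA, 32 higher and 42 lower. The median log2 fold change of all 483 tested miRNA was -0.07. The count was 10 without the irradiated female 1098, 10 without the sham female 1025 and 26 without the irradiated female 1046, and it lay within 1.5 times of 17 when any of the other 34 mice was left out. With the mouse as a random replicate block over time points it was 13, of which 12 are among the 17. With the mouse as a fixed replicate block, which tests the change from the sample before irradiation in 34 mice, it was 7, all among the 17. That fit also leaves out mouse 1098, which has no sample before irradiation.

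**Figure D1:**
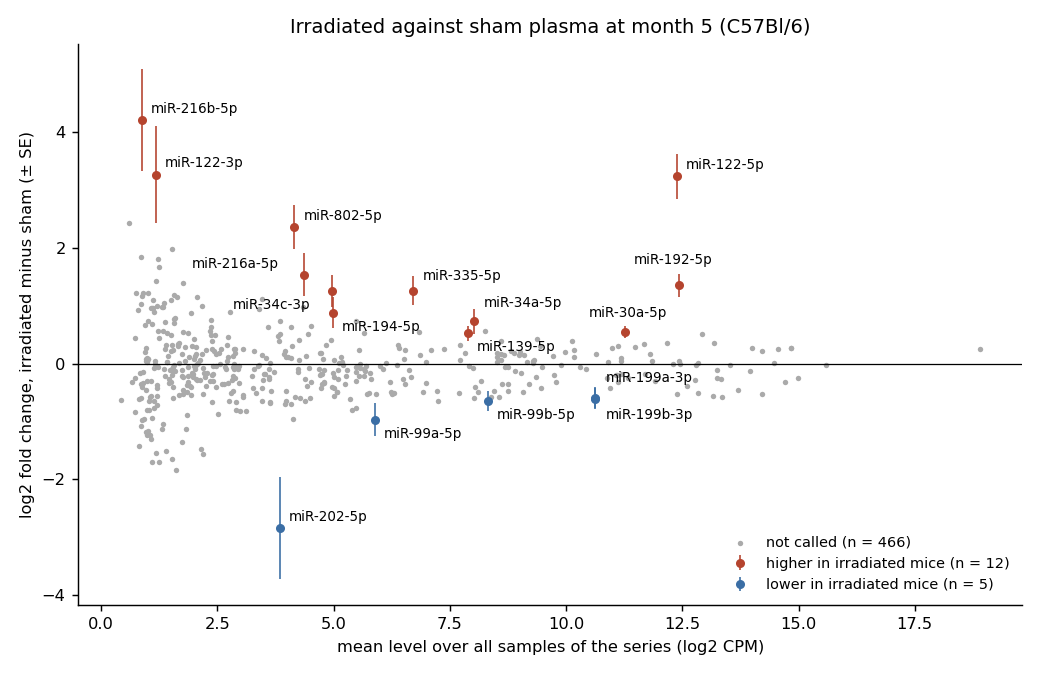
Log2 fold change of each of the 483 tested miRNA at month 5 (irradiated minus sham, y axis; bars on the 17 called miRNA are standard errors) against its mean level over all samples of the series (x axis, log2 CPM). The 12 called miRNA above 0 include miR-122-5p at 3.23 and miR-216b-5p at 4.19, and the 5 below 0 reach -2.84 for miR-202-5p.

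The sequences of the called miRNA are shown because shared seeds, shared whole sequences and shared loci decide which of these 17 results are separate. Mature sequences and positions are those of RefSeq on GRCm38.p6, the build known as mm10, written 5′ to 3′ with the seed in capitals. A sequence was printed for 15 of the 17, which carry 14 distinct sequences and 13 distinct seeds, since miR-199a-3p and miR-199b-3p are the same molecule and miR-99a-5p and miR-99b-5p share a seed. The first lines are the miRNA of liver, intestine and pancreas.
miR-192-5p (chr19:6264857-6264877, + strand): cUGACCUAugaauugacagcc
miR-194-5p (chr1:185313325-185313346, + strand, and chr19:6264658-6264679, + strand): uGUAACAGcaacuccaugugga
miR-802-5p (chr16:93369737-93369758, + strand): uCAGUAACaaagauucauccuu
miR-216a-5p (chr11:28757018-28757039, + strand): uAAUCUCAgcuggcaacuguga
miR-216b-5p (chr11:28746204-28746225, + strand): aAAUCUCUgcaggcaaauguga
miR-34a-5p (chr4:150068473-150068494, + strand): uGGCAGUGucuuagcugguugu
miR-34c-3p (chr9:51103044-51103065, - strand): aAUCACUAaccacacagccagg
miR-335-5p (chr6:30741314-30741336, + strand): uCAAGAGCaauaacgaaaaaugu
miR-139-5p (chr7:101475382-101475403, + strand): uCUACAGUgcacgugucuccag
miR-30a-5p (chr1:23272274-23272295, + strand): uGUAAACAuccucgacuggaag
miR-99a-5p (chr16:77598940-77598961, + strand): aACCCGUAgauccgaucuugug
miR-99b-5p (chr17:17830194-17830215, + strand): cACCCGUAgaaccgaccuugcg
miR-199a-3p and miR-199b-3p (chr1:162217883-162217904, + strand, chr9:21496498-21496519, - strand, and chr2:32318524-32318545, + strand): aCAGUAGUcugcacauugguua
miR-202-5p (chr7:139957732-139957752, - strand): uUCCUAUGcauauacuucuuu

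Some neighbours by sequence were measured too, and none of those named here was called. The miRNA miR-215-5p (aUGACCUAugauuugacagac), which carries the seed of miR-192-5p and differs from it at 3 aligned bases, had a log2 fold change of 0.39 (edgeR adjusted p = 0.366). The miRNA miR-100-5p (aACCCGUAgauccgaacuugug), with the seed of miR-99a-5p, stood at -0.57 (edgeR adjusted p = 0.497). The miRNA miR-34b-3p (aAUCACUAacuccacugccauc), with the seed of miR-34c-3p and 5 mismatches to it, stood at 0.65 (edgeR adjusted p = 0.231), and at 0.27 without the irradiated male 1007 (edgeR adjusted p = 0.706). The seeds of miR-216a-5p and miR-216b-5p differ, and the 2 molecules differ at 4 of their bases.

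The liver miRNA miR-122-5p had the strongest test result at month 5. It ranged from 10.44 to 17.01 log2 CPM in irradiated mice with a median of 13.81, and from 9.01 to 12.22 in sham mice with a median of 11.04. Of the 21 irradiated mice 17 lay above every sham mouse, 20 lay above the sham median, and the groups overlapped in the other 4. In reads, it was counted 688738 times over the irradiated libraries and 60702 times over the sham libraries. This gave a log2 fold change of 3.23 (standard error, SE, 0.39, edgeR adjusted p = 3.64e-13), and of 2.81 without the irradiated female 1098, whose level was the 17.01 (edgeR adjusted p = 2.61e-10). The other arm of the same hairpin, miR-122-3p, was sparse, with reads in 16 of 21 irradiated mice and in 5 of 16 sham mice. Its log2 fold change was 3.26 (SE 0.83, edgeR adjusted p = 0.00475), which came to 2.68 without mouse 1098 (edgeR adjusted p = 0.0505) and to 1.76 with the fixed replicate block (limma-voom adjusted p = 0.297).

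The miRNA miR-192-5p, abundant in liver, intestine and kidney, followed with the second smallest p. It ranged from 11.92 to 15.94 log2 CPM in irradiated mice (median 13.33) and from 11.54 to 12.97 in sham mice (median 12.14). Above the highest sham mouse were 15 of the 21 irradiated mice. The difference was 1.35 on the log2 scale (SE 0.20, edgeR adjusted p = 8.89e-09), and 1.03 without mouse 1098 (edgeR adjusted p = 4.68e-05). Its gene Mir192 is intergenic on chromosome 19, with Mir194-2 within 10 kb on the same strand. The shared mature miR-194-5p ranged from 2.07 to 7.54 log2 CPM in irradiated mice (median 6.03) and from 2.87 to 6.18 in sham mice (median 5.08), with 8 irradiated mice above every sham mouse. The value of 0.88 on the log2 scale for miR-194-5p (SE 0.27, edgeR adjusted p = 0.0370) lost the call without any one of 13 mice (1001, 1004, 1005, 1015, 1023, 1024, 1025, 1037, 1038, 1039, 1040, 1098 or 1099), with an edgeR adjusted p of up to 0.127 (0.74, without mouse 1098), and with both replicate blocks (limma-voom adjusted p = 0.0791 and 0.0916). The second copy, Mir194-1, lies 285 bases from Mir215 on chromosome 1, so the count does not tell which gene the reads came from. The passenger arms miR-194-1-3p and miR-194-2-3p, which do tell the copies apart, had log2 fold changes of -0.35 and 1.22 and neither was called (edgeR adjusted p = 0.453 for the latter). The other arm of miR-192, miR-192-3p, was not called at 1.11 (edgeR adjusted p = 0.0533). Without mouse 1098 it was 0.65 (edgeR adjusted p = 0.425), it was called when any one of 13 other mice was left out, with an edgeR adjusted p down to 0.0272, and DESeq2 called it at 1.14 (adjusted p = 0.0126).

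The miRNA miR-802-5p, made in liver, pancreas and intestine, was far less abundant. It ranged from 2.74 to 8.46 log2 CPM in irradiated mice (median 4.77) and from 1.03 to 4.66 in sham mice (median 3.22), and 12 irradiated mice lay above every sham mouse. The difference amounted to 2.35 on the log2 scale (SE 0.38, edgeR adjusted p = 1.30e-07). Without mouse 1098, the 8.46, it was 1.69 (edgeR adjusted p = 0.000406). Of the 10 tested miRNA listed for liver and intestinal epithelium, these 5 were called higher and 0 lower, beside 3.52% called among all tested miRNA. The 5 are not separate results: they include both arms of miR-122, and miR-192-5p and miR-194-5p have neighbouring genes. Without mouse 1098, miR-122-3p and miR-194-5p were not called (edgeR adjusted p = 0.0505 and 0.127). Of the 10, 8 had a positive and 2 a negative log2 fold change. The median log2 fold change of the list was 1.17 beside -0.07 for all tested miRNA. The list as a whole held a median of 2.67% of reads in irradiated mice (0.705 to 15.4%) and 0.894% in sham mice (0.475 to 1.42%). The 15.4% is mouse 1098 alone, and the next irradiated mouse stood at 7.04%. The groups overlapped at the low end of this share.

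**Figure D2:**
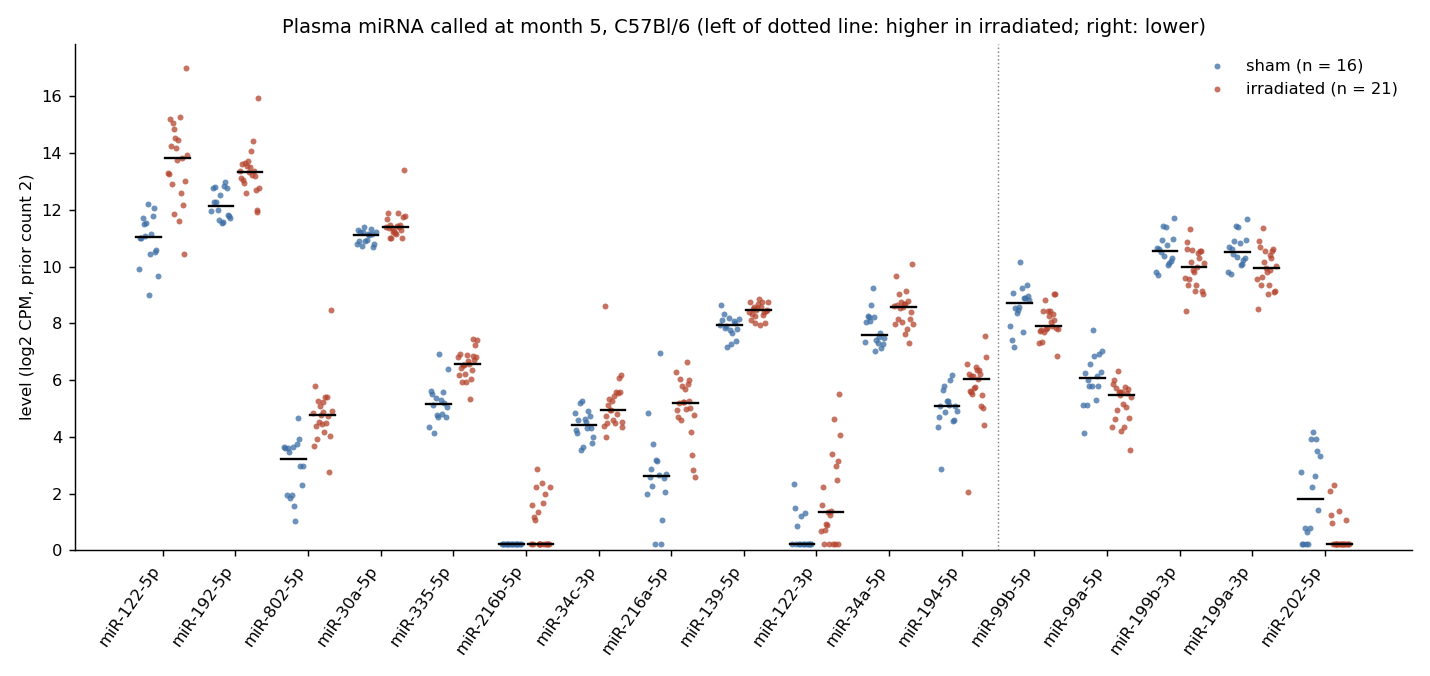
Level of each of the 17 called miRNA in each mouse at month 5 (y axis, log2 CPM; each point is a mouse, irradiated and sham side by side, with the group median as a line). For miR-122-5p 17 of 21 irradiated mice sit above every sham mouse, while for miR-335-5p only 4 do although all 21 sit above the sham median.

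The levels of the liver miRNA went together from mouse to mouse. Among the 21 irradiated mice, miR-122-5p and miR-192-5p had a Pearson r of 0.805 and a Spearman rho of 0.791 (permutation test, adjusted p = 0.00012 for r over the 8 pairs of miRNA compared). Without mice 1047 and 1098, the farthest from the median of miR-122-5p, r was 0.643. For miR-122-5p and miR-802-5p, r was 0.815 and rho 0.774 (permutation test, adjusted p = 0.00012), and r was 0.650 without those mice. Both pairs had the same sign in each sex, with r of 0.833 in females and 0.798 in males for miR-192-5p and of 0.920 and 0.658 for miR-802-5p. In the 16 sham mice, r was 0.703 for miR-122-5p with miR-192-5p (permutation test, adjusted p = 0.0194) and 0.490 with miR-802-5p (permutation test, adjusted p = 0.0918). The miRNA miR-34a-5p went along with miR-122-5p in irradiated mice as well, with r of 0.771 and rho of 0.768 (permutation test, adjusted p = 0.000187) and r of 0.743 without the 2 farthest mice. A relation was not detected between miR-122-5p and the pancreatic miR-216a-5p (r 0.0775, rho -0.0766, permutation test, adjusted p = 0.770) or the red blood cell miRNA miR-451a (r -0.0683, permutation test, adjusted p = 0.770). In sham mice miR-122-5p and miR-451a had r of 0.484 (permutation test, adjusted p = 0.0918) and rho of 0.600 (permutation test, adjusted p = 0.0425), and miR-122-5p and miR-34a-5p had r of 0.559 (permutation test, adjusted p = 0.0918) and rho of 0.600 (permutation test, adjusted p = 0.0425). Differences between the groups in these relations were not tested. For miR-192-5p with miR-194-5p in irradiated mice, r was 0.536 (permutation test, adjusted p = 0.0614) and rho 0.678 (permutation test, adjusted p = 0.00198), so that the relation passed by rank and not by r, and r was 0.326 without mice 1097 and 1098. In sham mice this pair had r of -0.00733 and rho of 0.129.

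**Figure D3:**
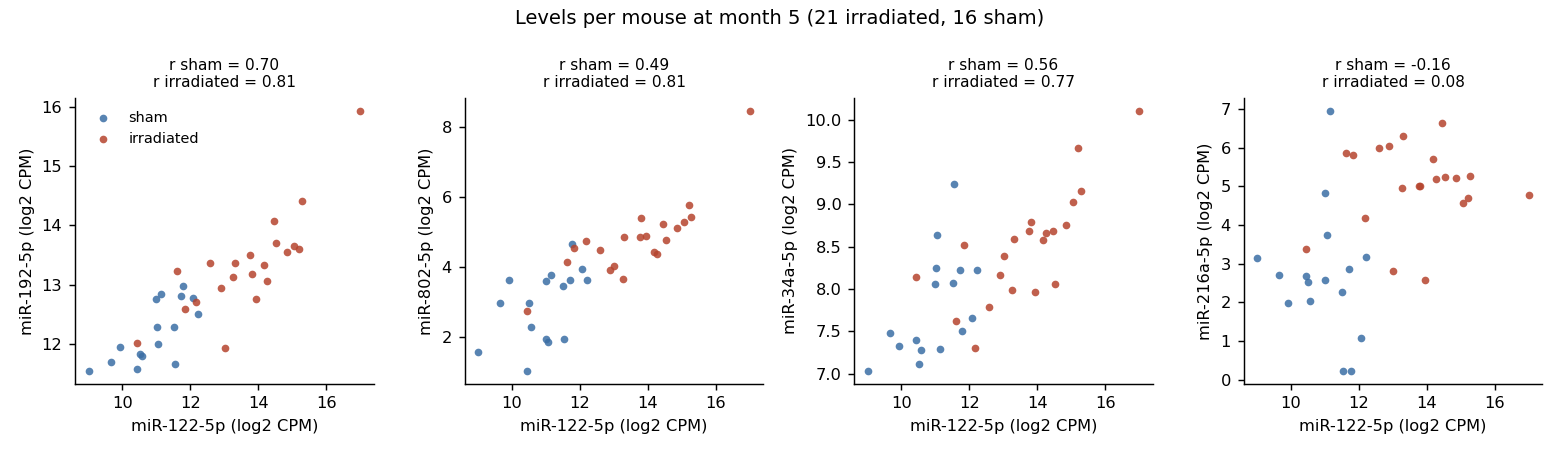
Levels per mouse at month 5 of pairs of miRNA (both axes log2 CPM; each point is a mouse, 21 irradiated and 16 sham), with Pearson r for each group above each panel. Over the irradiated mice r was 0.805 for miR-122-5p with miR-192-5p and 0.0775 with miR-216a-5p.

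The exocrine pancreas was represented by miR-216a-5p and miR-216b-5p, which lie in 1 cluster on chromosome 11 with miR-217-5p. Of 3 tested miRNA in the list of this tissue 2 were called, both higher, with a median log2 fold change of 1.53. Among all tested miRNA 3.52% were called. The level of miR-216a-5p ranged from 2.57 to 6.63 log2 CPM in irradiated mice (median 5.19) and from 0.23, the level of 0 reads, to 6.95 in sham mice (median 2.63). The highest value of all belonged to the sham female 1027, and the next sham mouse stood at 4.83, so that no irradiated mouse lay above every sham mouse although 20 of 21 lay above the sham median. The fitted difference of 1.53 on the log2 scale (SE 0.37, edgeR adjusted p = 0.00284) became 2.63 without mouse 1027 (edgeR adjusted p = 1.48e-08). By sex it was 2.53 in males (edgeR adjusted p = 0.000558) and 0.57 in females (edgeR adjusted p = 0.588), where mouse 1027 holds 188 of the 237 sham reads, and the difference between the sexes was not called (-1.96, edgeR adjusted p = 0.314). Without mouse 1027 it was 2.77 in females (edgeR adjusted p = 0.000315), and the difference between the sexes was 0.24 (edgeR adjusted p = 0.938). The paralogue miR-216b-5p was at the edge of detection, with 37 reads in 10 of the 21 irradiated mice, between 2 and 9 each, and 0 reads in the 16 sham mice. Set against a floor of 3 reads over the sham group, it was at least 10.6-fold higher in irradiated mice, and its fitted log2 fold change of 4.19 (edgeR adjusted p = 0.000178) depends on the prior count. The reads came from 4 females and 6 males. The third member, miR-217-5p, whose gene lies 6743 bases from Mir216a, had a log2 fold change of 1.16 and was not called (edgeR adjusted p = 0.277). A list of endocrine and neuroendocrine cells (miR-375 and miR-7), with miR-375-3p at 0.23 (edgeR adjusted p = 0.563), had 0 of 5 tested miRNA called by edgeR (0 also at an unadjusted p under 0.05) and a median log2 fold change of 0.07.

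The miR-34 and miR-449 family, whose miR-34 genes p53 induces in the response to DNA damage, gave 2 of 6 tested miRNA called, both higher, with a median log2 fold change of 0.57. The share called among all tested miRNA was 3.52%. The level of miR-34a-5p ranged from 7.31 to 10.10 log2 CPM in irradiated mice (median 8.58) and from 7.03 to 9.24 in sham mice (median 7.58). Only 2 irradiated mice lay above every sham mouse, so the groups overlapped widely. It was higher by 0.73 on the log2 scale (SE 0.22, edgeR adjusted p = 0.0335), and the call was lost without any one of 8 mice (1001, 1008, 1025, 1026, 1038, 1039, 1040 or 1098), with an edgeR adjusted p of up to 0.127 (0.60, without mouse 1098), or with scaling to total reads without TMM (edgeR adjusted p = 0.167). In females it was 1.27 (edgeR adjusted p = 0.00289) and in males 0.34 (edgeR adjusted p = 0.926), a difference that was not called (0.93, edgeR adjusted p = 0.569). Without mouse 1098 it was 0.91 in females (edgeR adjusted p = 0.0925) and the difference 0.57 (edgeR adjusted p = 0.793). For miR-34c-3p, the passenger arm, levels ran from 3.98 to 8.61 log2 CPM in irradiated mice (median 4.94) and from 3.55 to 5.27 in sham mice (median 4.42), with 9 irradiated mice above every sham mouse. The log2 fold change of 1.25 for miR-34c-3p (SE 0.27, edgeR adjusted p = 0.000330) came to 0.66 without the irradiated male 1007, whose 8.61 was the highest (edgeR adjusted p = 0.152). With the replicate blocks it was 0.82 and 1.21 and not called (limma-voom adjusted p = 0.0611 and 0.0906). Its partner arm miR-34c-5p stood at -0.12 (edgeR adjusted p = 0.899), so the arms of this hairpin did not share a value. Mir34c lies in an intron of Btg4 on the opposite strand, 530 bases from Mir34b.

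The other 3 miRNA that were higher have no single organ of origin. The miRNA miR-335-5p, from an intron of Mest, ranged from 5.32 to 7.44 log2 CPM in irradiated mice (median 6.56) and from 4.15 to 6.90 in sham mice (median 5.16). All 21 irradiated mice lay above the sham median and 4 above every sham mouse. The resulting log2 fold change was 1.26 (SE 0.26, edgeR adjusted p = 0.000107), and it was positive in both sexes. A relation of its level with that of miR-122-5p in irradiated mice was not detected (r 0.131, permutation test, adjusted p = 0.770), and the other arm, miR-335-3p, stood at 0.21 (edgeR adjusted p = 0.856). The miRNA miR-139-5p, from an intron of Pde2a, ranged from 7.96 to 8.86 in irradiated mice (median 8.46) and from 7.16 to 8.65 in sham mice (median 7.93), again with all 21 irradiated mice above the sham median. The difference was 0.52 on the log2 scale (SE 0.13, edgeR adjusted p = 0.00300). Scaling to total reads without TMM gave 0.42 (edgeR adjusted p = 0.140) and the fixed replicate block 0.65 (limma-voom adjusted p = 0.0646). The widely made miR-30a-5p ranged from 10.99 to 13.39 in irradiated mice (median 11.39) and from 10.70 to 11.38 in sham mice (median 11.12), with 11 irradiated mice above every sham mouse. The log2 fold change of 0.55 for miR-30a-5p (SE 0.11, edgeR adjusted p = 4.52e-05) was 0.36 without mouse 1098, the 13.39 (edgeR adjusted p = 0.0312), 0.42 without TMM (edgeR adjusted p = 0.0515) and 0.45 with the fixed replicate block (limma-voom adjusted p = 0.108). Its near relatives miR-30c-5p and miR-30e-5p were both at 0.31 and not called (edgeR adjusted p = 0.437 and 0.155).

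Among the lower miRNA, miR-99a-5p and miR-99b-5p come from genes on chromosomes 16 and 17, in introns of Mir99ahg and Spaca6, and share a seed with 4 mismatches over the whole sequence. The level of miR-99b-5p ranged from 6.83 to 9.05 log2 CPM in irradiated mice (median 7.92) and from 7.17 to 10.16 in sham mice (median 8.70). Below the sham median were 18 of 21 irradiated mice. A log2 fold change of -0.65 resulted (SE 0.18, edgeR adjusted p = 0.0128), and -0.48 without the sham female 1025, the 10.16 (edgeR adjusted p = 0.136). The level of miR-99a-5p ranged from 3.53 to 6.32 in irradiated mice (median 5.46) and from 4.12 to 7.76 in sham mice (median 6.07), and 20 of 21 irradiated mice lay below the sham median. For this miRNA the difference was -0.97 on the log2 scale (SE 0.28, edgeR adjusted p = 0.0240), -0.78 without mouse 1025 (edgeR adjusted p = 0.118), not called without mouse 1040 and -0.91 without mouse 1098 (edgeR adjusted p = 0.0525). Both calls were lost with either replicate block, with limma-voom adjusted p of 0.0568 and 0.474 for miR-99b-5p and of 0.0773 and 0.474 for miR-99a-5p. Both were kept in females alone and lost in males alone (edgeR adjusted p = 0.973 for each), and a difference between the sexes was not called. The miRNA made beside them were not called: let-7e-5p at -0.49 (edgeR adjusted p = 0.231) and miR-125a-5p at -0.42 (edgeR adjusted p = 0.114) beside miR-99b-5p, and let-7c-5p at -0.32 (edgeR adjusted p = 0.559) beside miR-99a-5p.

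The names miR-199a-3p and miR-199b-3p stand for 1 mature sequence made from 3 genes, of which Mir199a-2 lies in an exon of Dnm3os, a transcript of mesenchymal cells. Their counts per mouse differed by no more than a factor between 0.931 and 1.07 (0.998 over all 37 mice), so they are 1 measurement and not 2. Read as miR-199b-3p, it ranged from 8.42 to 11.32 log2 CPM in irradiated mice (median 9.97) and from 9.70 to 11.70 in sham mice (median 10.56), and 8 irradiated mice lay below every sham mouse. The log2 fold change was -0.61 (SE 0.18, edgeR adjusted p = 0.0255). The call depended on single mice and on the scaling: leaving out any one of 7 mice (1007, 1015, 1024, 1025, 1029, 1040 or 1098) ended it, with an edgeR adjusted p of up to 0.111 (without mouse 1040), and the adjusted p was 0.0571 with the RLE size factors in edgeR and 0.0738 without TMM. With the fixed replicate block the value was -0.26 (limma-voom adjusted p = 0.823). The other arms miR-199a-5p and miR-199b-5p, which do differ in sequence, stood at -0.52 (edgeR adjusted p = 0.366) and -0.70 (edgeR adjusted p = 0.348), and miR-214-3p from the same transcript as Mir199a-2 at -0.49 (edgeR adjusted p = 0.390). In the list of fibroblasts and smooth muscle, 16 miRNA were tested, 13 had a negative log2 fold change, and this pair made the 2 calls, with a median of -0.34 for the list. As 1 measurement the pair is 1 call, beside 3.52% called among all tested miRNA.

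The gonadal miRNA miR-202-5p, from an exon of the noncoding gene Gm2044, was the one miRNA whose month 5 effect differed between the sexes (1 of 483, 0.207%). In sham females it had between 2 and 31 reads a mouse (median 17.5), 123 in all. In the 9 irradiated females it had 1 read in all, with 8 of 9 mice at 0. In males it was near the floor in both groups, with 11 reads over 8 sham mice and 21 reads over 12 irradiated mice. The level in irradiated females was 0.909% of that in sham females (exact 95% interval of the counting error 0.0228 to 5.16%). The log2 fold change was -5.73 in females and 0.17 in males, a difference of -5.89 (SE 1.46, edgeR adjusted p = 0.0284). Without the sham female 1027 this difference was -5.72 (edgeR adjusted p = 0.0544) and without the irradiated female 1098 -5.78 (edgeR adjusted p = 0.0548), so that its size held and the call did not. The log2 fold change in females was -5.55 (edgeR adjusted p = 5.33e-05) and -5.62 (edgeR adjusted p = 0.000315) in these fits. Over both sexes the log2 fold change was -2.84 (SE 0.88, edgeR adjusted p = 0.0370), a value that mixes these. With sex as a covariate this call was lost, the only 1 of the 17 lost in that fit. The call over both sexes was lost without any one of 11 mice (1022, 1024, 1025, 1027, 1029, 1037, 1038, 1040, 1097, 1098 or 1099), with an edgeR adjusted p of up to 0.102 (-2.65, without mouse 1025), and with the replicate blocks (-1.80 and -0.38, limma-voom adjusted p = 0.266 and 0.903). The other arm, miR-202-3p, had 0 reads in 9 irradiated females and 28 reads in 8 sham females, at least 8.35-fold lower at a floor of 3 reads over the irradiated group. Over both sexes miR-202-3p was not called (-1.47, edgeR adjusted p = 0.345). In the list of gonadal miRNA miR-202-5p was the 1 call of 5 tested, with a median of -0.85, beside 3.52% called among all tested miRNA. Libraries of irradiated females were shallower, with a median of 1081280 total reads against 1522862 in sham females. Taken apart by sex, 27 miRNA (5.59%) were called in females and 9 (1.86%) in males. The count in females was 6 without mouse 1098 and 15 without the sham female 1025, and these counts were not compared with those in males.

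**Figure D4:**
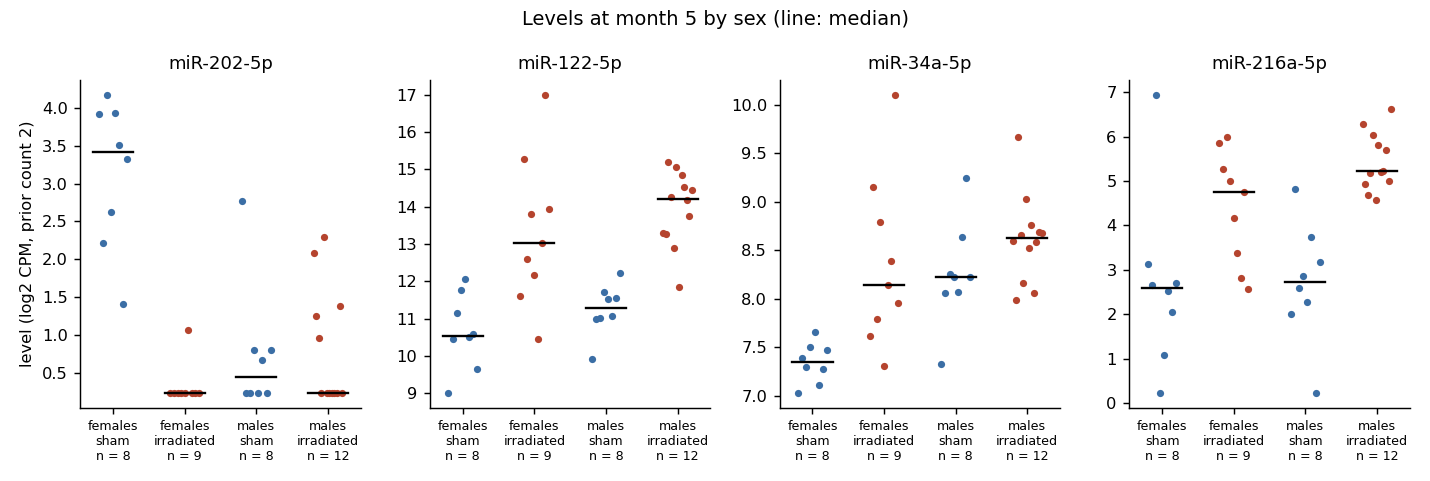
Levels at month 5 by sex and treatment (y axis, log2 CPM; each point is a mouse, the line is the median; 9 irradiated and 8 sham females, 12 irradiated and 8 sham males). For miR-202-5p, 8 of 9 irradiated females lie at the level of 0 reads, 0.23, while sham females have a median of 3.42.

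The lists for other tissues are small, and at the 3.52% called among all tested miRNA such lists would hold few calls or none, so their counts are not results about these tissues. Of 12 tested miRNA of lymphocytes and myeloid cells 0 were called by edgeR and 3 had an unadjusted p under 0.05, with a median log2 fold change of -0.15. Among them, miR-150-5p of lymphocytes stood at 0.35 (edgeR adjusted p = 0.259), miR-155-5p at 0.24 (edgeR adjusted p = 0.596) and miR-142a-3p of all blood cells at -0.35 (edgeR adjusted p = 0.560). Of 17 tested miRNA of epithelium 0 were called, 3 had an unadjusted p under 0.05 and 16 were negative, with a median of -0.26, and the list held a median of 3.18% of reads in irradiated and 4.90% in sham mice. Heart and skeletal muscle had 0 of 8 called (1 unadjusted, median 0.08), endothelium 0 of 2 (0 unadjusted, median 0.14) and brain 0 of 10 (2 unadjusted, median -0.19). Of 40 tested miRNA of the imprinted Dlk1-Dio3 cluster on chromosome 12, 34 were negative and 0 were called, with a median of -0.42 and 9 at an unadjusted p under 0.05. Closest to the threshold there were miR-434-5p at -0.81 (edgeR adjusted p = 0.0512) and miR-134-5p at -0.77 (edgeR adjusted p = 0.0520). The 13 tested miRNA of a list of common plasma references gave 0 calls (0 unadjusted) and a median of 0.07. A shift of the whole scale would move all such medians: with total reads in place of TMM the median of all tested miRNA was -0.18.

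Red blood cell miRNA were not called at month 5, but their values leaned higher in irradiated mice. Their 7 tested members all had a positive log2 fold change and 0 were called by edgeR (0 also at an unadjusted p under 0.05). They include both arms of miR-144, miR-486a and miR-486b. The counts of miR-486a-5p and miR-486b-5p were nearly equal (702862 and 700724 reads in irradiated mice), both at 0.27. The 7 are therefore not separate results. Their median was 0.27 beside -0.07 for all tested miRNA, and miR-451a stood at 0.51 (edgeR adjusted p = 0.362). The miRNA miR-16-5p, in the list of common plasma references, stood at 0.26 (edgeR adjusted p = 0.466). The red blood cell list held 2.69 to 8.97% of reads in irradiated mice (median 4.48%) and 2.09 to 6.34% in sham mice (median 4.33%), with overlap between the groups. This share leaves out miR-16-5p, which alone held a median of 48.3% of reads in irradiated and 42.4% in sham mice. The mean level of miR-451a, miR-144-3p and miR-486a-5p in each sample was used as a covariate for red blood cells. With it, in a fit of the month 5 samples alone, 10 miRNA were called. All were among the 17, with miR-122-5p, miR-192-5p and miR-802-5p among them. Those lost were miR-30a-5p, miR-216a-5p, miR-194-5p and the 4 of the miR-99 and miR-199 families. The same fit without this covariate kept 11 of the 17 and lost these too, except for miR-99a-5p. The part of the red blood cell level in these losses was not tested further.

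Before irradiation, the same contrast called 0 of 483 miRNA (0%) by edgeR, with 25 at an unadjusted p under 0.05. After irradiation, the number was 32 at day 2 (6.63%), 68 at day 5 (14.1%), 18 at month 1 (3.73%), 16 at month 2 (3.31%), 8 at month 3 (1.66%), 23 at month 4 (4.76%) and 2 at month 6 (0.414%), where 8 irradiated mice remained. These contrasts share no sample. Day 2 and day 5 hold different mice, those of schedules A and B, and the contrast before irradiation holds 64 irradiated and 32 sham mice, of which 34 are mice of the month 5 groups. For miR-122-5p the log2 fold change went from -0.13 before irradiation to -1.69 at day 2, -1.74 at day 5 and -0.55 at month 1, and then to 1.36, 1.47, 2.97 and 3.23 at months 2 to 5 and 1.10 at month 6. It was called lower at days 2 and 5, and higher from month 2 to month 5. For miR-192-5p it was 0.92 at day 2, 0.75 at day 5, 0.08 at month 1, 1.13 at month 4 and 0.57 at month 6, with calls at both early days and at months 2, 4 and 5. The pancreatic miR-216a-5p was called higher at each time from month 1 (2.07) through months 2 to 4 (3.06, 2.43 and 2.30) and at month 6 (3.03). The level of miR-335-5p was called higher at months 3 (1.10), 4 (1.15) and 5. The calls of miR-194-5p, miR-99a-5p, miR-199a-3p and miR-199b-3p were made at month 5 and at no other time, but their differences from month 4 were not called. At month 4 miR-99a-5p stood at -0.64 (edgeR adjusted p = 0.131), miR-199a-3p at -0.50 (edgeR adjusted p = 0.0506), miR-199b-3p at -0.49 (edgeR adjusted p = 0.0516) and miR-194-5p at 0.41 (edgeR adjusted p = 0.432). The miRNA miR-202-5p was called higher at day 2 (2.20) and lower at months 1 to 4 (-3.10, -3.89, -4.58 and -3.46).

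**Figure D5:**
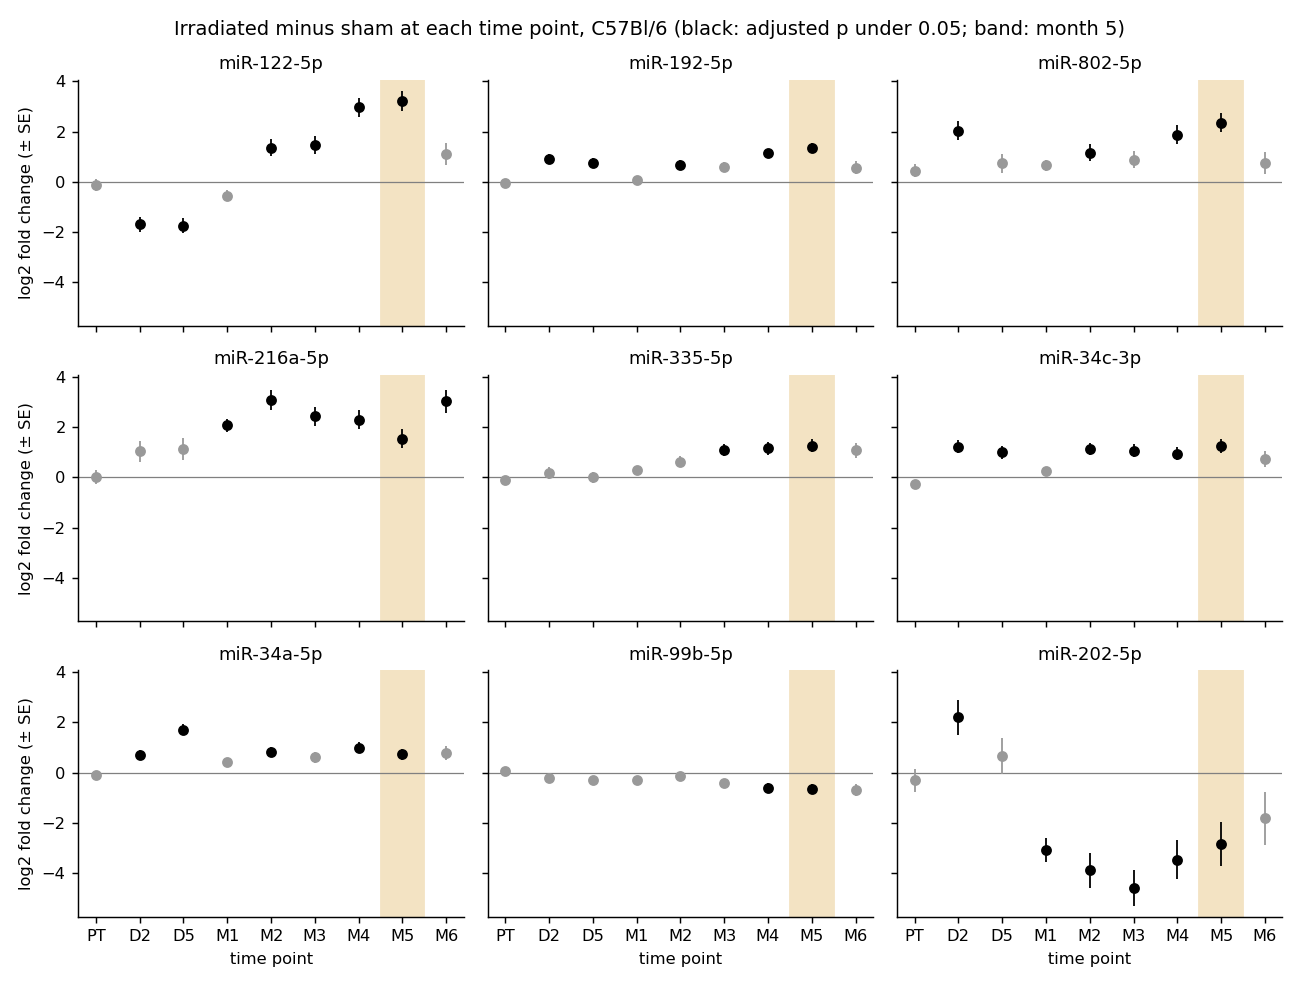
Log2 fold change of called miRNA (irradiated minus sham, y axis, bars are standard errors) at each time point of C57Bl/6 mice (x axis, PT is before irradiation, D days, M months), with black points for an adjusted p under 0.05 and a band at month 5. The value of miR-122-5p runs from -1.74 at day 5 to 3.23 at month 5, and that of miR-216a-5p stays above 2 at months 1 to 4.

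The difference between the month 5 contrast and the one before irradiation was tested in the same model and called for 9 of 483 miRNA (1.86%), 60 at an unadjusted p under 0.05. All 9 are among the 17: miR-122-5p changed by 3.36 on the log2 scale (edgeR adjusted p = 2.82e-11), miR-192-5p by 1.38 (edgeR adjusted p = 1.23e-06), miR-802-5p by 1.90 (edgeR adjusted p = 0.00120) and miR-335-5p by 1.35 (edgeR adjusted p = 0.000635). The others were miR-122-3p, miR-216b-5p, miR-34c-3p, miR-30a-5p and miR-139-5p. Not called were miR-216a-5p at 1.51 and miR-99b-5p at -0.70 (both edgeR adjusted p = 0.0513) and miR-34a-5p at 0.83 (edgeR adjusted p = 0.0697). This test treats samples of the same mouse as independent. With the mouse as a fixed replicate block, the same change was not called for miR-122-3p, miR-34c-3p, miR-30a-5p and miR-139-5p and was called for miR-216a-5p at 2.65 (limma-voom adjusted p = 0.0134) and miR-34a-5p at 1.05 (limma-voom adjusted p = 0.0259). It was called in both fits for miR-122-5p, miR-192-5p, miR-802-5p, miR-335-5p and miR-216b-5p. Against month 4, 0 of 483 contrasts differed by edgeR or limma-voom (0%, 16 at an unadjusted p under 0.05 in edgeR), with miR-122-5p at 0.26 (edgeR adjusted p = 0.990). Against month 6, again 0 differed by edgeR or limma-voom (0%, 22 at an unadjusted p under 0.05 in edgeR), with miR-122-5p at 2.13 (SE 0.60, edgeR adjusted p = 0.193), and with 8 irradiated mice at month 6 this comparison is the least precise.

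In the mice of the month 5 groups followed over time, mean miR-122-5p was 11.24 log2 CPM in the 18 irradiated mice with a sample before irradiation and 11.73 in the 16 sham mice. It was 11.71 and 11.61 at month 1, 11.99 and 10.74 at month 2, 12.92 and 11.54 at month 3, 13.45 and 11.03 at month 4 and 13.69 and 10.95 at month 5. At month 6 it was 12.94 in the 8 irradiated mice still sampled and 11.81 in the sham mice. The irradiated mean was highest at month 5, and the sham means moved between 10.74 and 11.81 with no steady direction. At month 5, the 8 irradiated mice with a later sample had a mean miR-122-5p of 13.43 ± 1.29 (SD) and the 13 without one 13.85 ± 1.63 (SD). For miR-216a-5p these means were 5.61 ± 0.74 and 4.64 ± 1.09 (SD). They are given as a description without a test, and why a mouse has no later sample is not in the labels.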

How the data were processed

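The authors isolated miRNA from plasma, made libraries with the QIAseq miRNA kit, counted reads per mature miRNA with Illumina's BaseSpace Small RNA application and deposited raw counts, without normalization. The submitters' processing notes name the build mm10. Plasma with hemolysis over a limit and runs with too few miRNA reads had been left out by them. The miRBase release, and whether molecular identifiers were used, are not given in the sources used here, so intervals and floors cover counting error only.

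From the counts, TMM factors, log2 CPM (prior count 2) and quasi-likelihood tests were computed with edgeR 4.0.16 in R 4.3.3. The model held a mean for each of 32 groups of strain, treatment and time point over all samples of the series, with 867 residual degrees of freedom. Of 1915 miRNA, 483 passed filterByExpr and held 99.99% of reads. Calls are Benjamini-Hochberg adjusted p under 0.05 within a contrast. A model with sex in the groups tested sex differences. Correlations used two-sided permutation tests (100000 resamples) adjusted over 8 pairs. Alternatives used limma 3.58.1 (limma-voom, quantile-normalized log2 RPM) and DESeq2 1.42.0. The 2-group contrast at month 5 shares no mouse between groups. Mice pair samples over time by their numbers in the labels. After group means were removed, samples of the same mouse at month 5 and before irradiation had a mean correlation of -0.0362 over 34 mice, and at month 4 of 0.133.

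The named miRNA were all called ones, their other arms, those the study names for plasma, and members of 14 lists of tissue and cell markers. The miRNA miR-100-5p, miR-30c-5p, miR-30e-5p, let-7e-5p, miR-125a-5p and let-7c-5p, named for a shared seed or a neighbouring gene, were chosen after their values were seen. The comparison, the lists and the rule were chosen with earlier results of these data known. Leaving out each mouse (4 that stood apart in the model with sex), and libraries under 1000000 reads, were alternatives chosen after seeing the data. The tests were checked on simulated data with changes seeded in 200 of the 483 miRNA. That is a far larger share than was called in these data. The simulated samples were drawn independently, so no mouse recurred over time. With fewer changes the recovered share can be lower, so the shares below may not hold for these data. The month 5 test recovered 60% of 2-fold and 83% of 4-fold changes, with 4.03% of its calls false. Against month 4 the test recovered 44% of 2-fold changes, and against month 6 it recovered 36%. The sex difference test recovered 20% of 2-fold and 48% of 4-fold changes, with 8% of its calls false. A lack of calls in these tests is therefore not absence of a change. Mature sequences come from RefSeq (GRCm38.p6) and gene positions from the GRCm38 annotation. Those of miR-122 are not shown here.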

Additional observations from a re-analysis of the deposited data

Results flagged for a closer look

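Combinations of a called miRNA with a group of 4 to 10 mice of 1 sex and treatment numbered 49. In 6 of them a mouse lay far from the others of its group by Dixon's test. The combinations share mice, and the 12 irradiated males were not tested. Chance alone gives about 1 in 20, but not where all mice except 1 have 0 reads. That was so for miR-122-3p in mouse 1027 and miR-202-5p in mouse 1047. The irradiated female 1098 had 8.46 log2 CPM of miR-802-5p, with the next irradiated female at 5.42, and 13.39 log2 CPM of miR-30a-5p, with the next at 11.87. The sham female 1027 had 6.95 log2 CPM of miR-216a-5p, with the next sham female at 3.14. The same mouse was the one sham female with reads of miR-122-3p, at 1.31 log2 CPM. For miR-202-5p, the irradiated female 1047 stood at 1.07 log2 CPM, from 1 read, with the others at 0 reads, and the sham male 1001 stood at 2.77 with the next at 0.80. The month 5 effect on miR-202-5p differed between females and males by -5.89 on the log2 scale (edgeR adjusted p = 0.0284), a call that was lost without mouse 1027 or mouse 1098 (edgeR adjusted p = 0.0544 and 0.0548). In sham females all 8 mice had reads, and in irradiated females 8 of 9 had none.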

How the results depend on the processing

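The number of miRNA called at month 5, 17, stayed within 1.5 times under limma-voom (14), DESeq2 (23), the RLE size factors (15), a minimum of 10 CPM (19), sex (20) or the bleeding schedule (22) as a covariate, females alone (24), libraries of at least 1000000 reads (15) and the mouse as a random replicate block (13). It was 51 with no filter on low counts, 11 with total reads in place of TMM, 11 in a fit of the month 5 samples alone and 10 with quantile-normalized log2 RPM. With the red blood cell level as a covariate in a fit of the month 5 samples alone, it was 10. It was 10 for schedule A, 5 for schedule B, 9 for males, 8 without the 3 irradiated mice that lack a sample before irradiation and 7 with the mouse as a fixed replicate block. The settings giving 8 and 7 leave out mouse 1098, without which alone the count was 10. Leaving out each mouse gave 10 to 26. The cause of these moves was not tested. The calls of miR-122-5p, miR-192-5p and miR-802-5p were kept under all 19 alternatives, and that of miR-335-5p under 18. Those of miR-199a-3p and miR-194-5p were kept under 7 of 19. The sex difference of miR-202-5p lay between -4.04 and -5.99 under other scalings, filters and limma-voom (edgeR or limma-voom adjusted p of 0.0111 to 0.0406). With each of mice 1007, 1025, 1027 and 1098 left out of the model with sex, 0 to 1 miRNA differed between the sexes (0 without 1027 or 1098), and the difference for miR-216a-5p lay between -2.08 and 0.24 where it is -1.96 with all mice, and turned to 0.24 without mouse 1027. In females alone 12 of the 17 calls were kept, and in males alone 7. Among those lost in males were miR-122-3p (edgeR adjusted p = 0.973), miR-30a-5p (edgeR adjusted p = 0.811) and miR-139-5p (edgeR adjusted p = 0.616), and miR-202-5p turned to 0.18. With no filter, the differences of the month 5 effect were called for 39 miRNA against before irradiation, 37 against month 4, 42 against month 6 and 13 between the sexes, where 9, 0, 0 and 1 were called with it. With RLE the relation of miR-192-5p and miR-194-5p in irradiated mice passed the threshold (r 0.575, permutation test, adjusted p = 0.0387). DESeq2 gave no adjusted p for 2 of the 17. No month 5 library lies under 5e+05 reads, so that alternative gave no value of its own. Depth limits miR-216b-5p, miR-122-3p and miR-202-5p, which had 0 reads in many libraries.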
